A study of Mus musculus with 5 samples.

Results

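Collagens are the main load-bearing proteins of the artery wall. Fibrillar collagens are woven into thick fibres that take up tension, network-forming type IV collagen carries the basement membrane that surrounds each smooth muscle cell and underlies the endothelium, and type VI collagen forms beaded filaments that tie cells to the surrounding matrix. Each collagen molecule is a triple helix of chains, and the chains are encoded by separate genes, several of which lie in head-to-head pairs that are read in opposite directions from neighbouring start sites.

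The transcripts of 35 collagen genes were read from the thoracic aorta of mice in which PPARγ, a nuclear receptor that controls lipid genes and is also active in the vessel wall, was interfered with in smooth muscle. The members were a fixed list of collagen chains, and all 35 had at least 1 probe set, a group of short probes for one transcript, that the platform annotation assigns to that gene alone. They were covered by 66 of the 45037 probe sets tested and made up 35 of 18193 named genes. Each gene was read from its brightest probe set by the mean of the 5 arrays, called the main probe set here, and the other 31 probe sets are given beside it. By the structure of the protein, 10 members were fibrillar, 8 were basement membrane collagens (the type IV chains with Col15a1 and Col18a1), 3 were the beaded type VI chains and 14 were other collagens. The choice of members did not use measured values, although it was made with earlier results of these data known.

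Both groups were thoracic aortas of male C57BL/6 mice. The transgenic group, written P467L, carried a human PPARγ with the dominant negative P467L mutation under the smooth muscle myosin heavy chain (SMMHC) promoter and was measured on 3 arrays. The control group was 2 arrays of littermates without the transgene. The RNA on an array came from a pool of 6 to 8 aortas, labelled as an independent biological replicate, and the age of the mice was not given in the sources used here. The promoter directs the transgene to smooth muscle, whereas RNA of the whole aorta also comes from endothelial and adventitial cells, and the mice keep their own PPARγ. In such RNA, fewer cells of a type and less RNA per cell cannot be told apart.

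Values were on the log2 scale, so that a difference of 1 is a doubling. The array medians ran from 6.17 to 6.25, and the values from 3.03 to 14.99. Smooth muscle was well represented, with Acta2 at 14.79 to 14.83 and Myh11 at 13.87 to 13.94 in the 5 arrays. Certain arrays stood apart. P467L replicate 1 had the lowest nuclear noncoding RNA, with Malat1 at 8.03 against 9.45 to 9.87 in the other arrays, and non-transgenic replicate 2 had a summed log2 level of stomach epithelium markers of 15.15 against 11.77 to 12.56 elsewhere. Their part in the results below was not tested beyond leaving them out.

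Across the 35 collagens the genotypes differed little. The differences (P467L minus non-transgenic, log2) ran from -0.24 for Col4a2 to 0.60 for Col15a1, with a median of 0.01 beside 0.02 over all genes, and 15 members differed by less than 0.1. No member passed limma's test with Benjamini-Hochberg adjustment at 0.05, as was true of every probe set on the array (0 of 45037, or 0%). At an unadjusted p under 0.05 there were 9 members, 6 higher and 3 lower in P467L. They made up 17.1% of members higher and 8.57% lower, where 6.94% of all genes were higher and 2.51% lower by the same rule. All 9 lay at or above the median level of the array, as did 28 of the 35 members, and among all genes at that level 10.1% were higher and 2.72% lower. With each array centred on its own median the split was 7 higher and 1 lower, and after a second quantile normalization it was 4 higher and 3 lower. Of all genes, 7.42% were higher and 1.35% lower with centring, and 4.86% and 2.36% after the second quantile normalization.

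**Figure D1:**
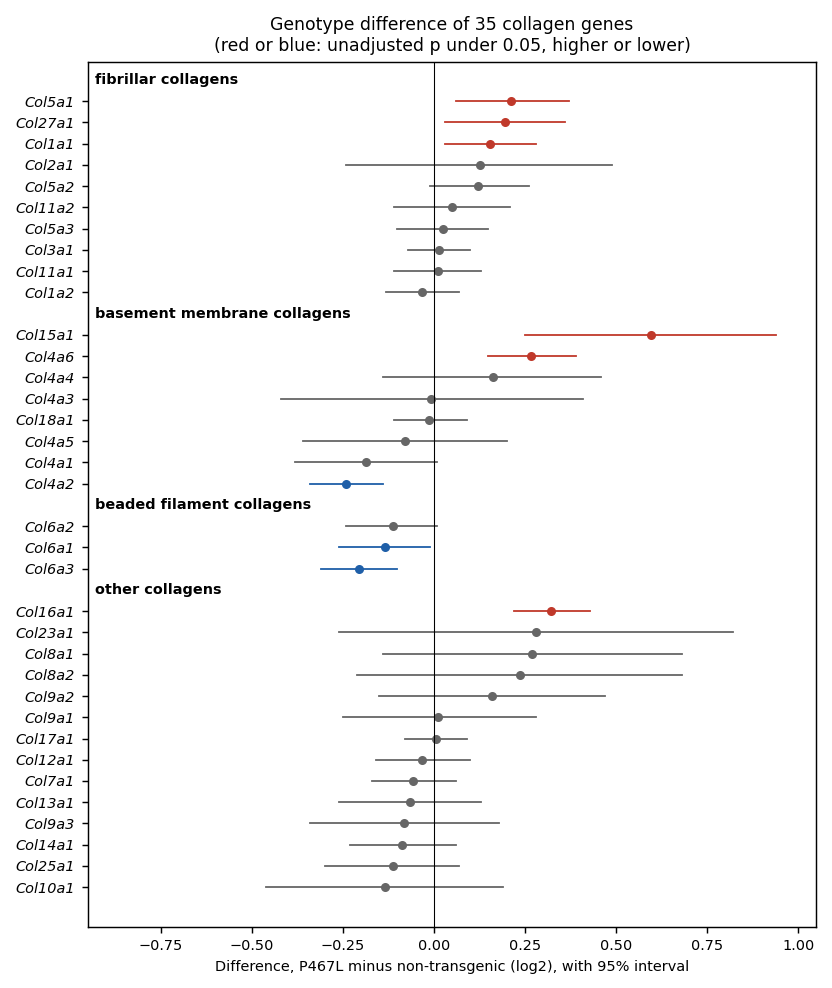
Difference between the genotypes (P467L minus non-transgenic, log2) for the main probe set of each of the 35 collagen genes, in 4 classes; points are limma estimates and lines 95% intervals, from 3 and 2 arrays. The intervals of 6 genes lie above 0 and those of 3 lie below it, before any adjustment, from 0.60 for Col15a1 to -0.24 for Col4a2.

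In 13 members the groups did not overlap: in 8 all 3 P467L arrays lay above both non-transgenic arrays, and in 5 they lay below. These are 22.9% and 14.3% of members, beside 16.1% of all genes that lay above without overlap and 6.55% that lay below. With probe sets at or above the median level only, 25.0% of 28 members lay above and 17.9% below. Of all genes in that setting, 23.2% lay above and 6.28% below, so the share of members above was near that of all genes. With median centring the counts were 12 above and 3 below, where 32.1% and 3.26% of all genes did so. In the text that follows, "higher" and "lower" describe the measured means, since 0 collagens passed adjustment.

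Of the 10 fibrillar collagens, 9 had a higher mean in P467L, 3 had an unadjusted p under 0.05, and the median difference was 0.09. Over all genes 10196 of 18193 had a higher mean, 6.94% were higher at that p, and the median was 0.02. At or above the median level of the array, 10.1% of all genes were higher at that p. Col1a1 encodes a chain of type I collagen, the most abundant collagen of the adventitia. It measured 13.22 and 13.27 in the controls and 13.42, 13.43 and 13.35 in P467L replicates 1 to 3. The groups did not overlap, with means of 13.25 ± 0.04 (SD, n = 2) and 13.40 ± 0.04 (SD, n = 3). The difference was 1.11-fold (limma, SE 0.04 log2 units, adjusted p = 0.551). A second Col1a1 probe set gave 0.30, with overlapping groups.

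Its partner chain, Col1a2, measured 14.12 and 14.16 in the controls and 14.12, 14.12 and 14.08 in the P467L arrays, and the groups overlapped. The difference was -0.03 with a 95% interval from -0.13 to 0.07. Col3a1, the chain of type III collagen, which shares fibres with type I, measured 14.01 and 14.04 against 14.03, 14.04 and 14.05, a difference of 0.01 with an interval from -0.07 to 0.10. Both probe sets are among the brightest of the array, and bright probe sets can compress a difference; a dimmer Col1a2 probe set gave -0.04 and a dimmer Col3a1 probe set -0.10.

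Type V collagen sets the diameter of type I fibres, and both of its main chains were higher in P467L. Col5a1 measured 11.53 and 11.60 in the controls and 11.83, 11.80 and 11.70 in P467L replicates 1 to 3, a 1.16-fold difference (limma, SE 0.06 log2 units, adjusted p = 0.536). Every P467L array was above both controls, and this held for each of the 3 Col5a1 probe sets, whose differences were 0.21, 0.17 and 0.13. Col5a2 measured 12.35 and 12.40 against 12.43, 12.53 and 12.53, a difference of 0.12 (adjusted p = 0.730), again without overlap. A second Col5a2 probe set gave 0.08 with overlapping groups. Col5a3, the minor chain, measured 6.50 to 6.53 in the controls and 6.50 to 6.60 in P467L. A dim second Col5a3 probe set gave -0.10, with every P467L array below both controls.

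Col27a1 encodes a fibrillar collagen best known from cartilage. It measured 9.10 and 8.95 in the controls and 9.23, 9.25 and 9.18 in P467L, or 1.14-fold (limma, SE 0.06 log2 units, adjusted p = 0.588). The groups did not overlap, and a second probe set gave 0.14. With P467L replicate 2 left out, 0 of the 10 fibrillar genes had an unadjusted p under 0.05, beside 4.56% of all genes higher in that setting. The differences of Col1a1, Col5a1 and Col27a1 were then 0.14, 0.20 and 0.18 and the median was 0.08. Without both arrays that stood apart the median was 0.02, with 6 genes higher, 3 lower and Col11a1 at 0. The cartilage fibrillar chains Col2a1, Col11a1 and Col11a2 differed by 0.13, 0.01 and 0.05, and all 3 overlapped between the groups.

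Type IV collagen is the scaffold of the basement membrane, and its most common form is built from the chains of Col4a1 and Col4a2. Both were lower in P467L. Col4a2 measured 12.45 in both controls and 12.21, 12.24 and 12.18 in P467L replicates 1 to 3. All 3 P467L arrays lay below the controls by more than the spread within either group, with a difference of -0.24 (limma, SE 0.04, 95% interval -0.34 to -0.14, adjusted p = 0.320). Col4a1 measured 13.14 and 13.22 against 12.89, 13.02 and 13.07, a difference of -0.19 (SE 0.07, adjusted p = 0.687). The second Col4a1 probe set gave 12.19 and 12.23 in the controls and 11.95, 11.97 and 12.01 in P467L, a difference of -0.23. In each of these 3 probe sets the groups did not overlap.

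Col4a1 and Col4a2 are head-to-head neighbours. RefSeq promoter windows (GRCm38.p6, 250 bases before to 50 bases after a start) were matched for 28 of the 35 members. Those of Col4a1 and Col4a2 share 78 bases on chromosome 8, with Col4a2 on the + strand and Col4a1 on the - strand. The bases from the Col4a2 start to the Col4a1 start, chr8:11312805-11312826 on the + strand, are shown because they belong to the beginning of both transcripts, with a GC box, the motif GGGCGG, in capitals.
Col4a1/Col4a2: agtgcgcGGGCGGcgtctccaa

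The Col4a5 and Col4a6 pair, which encodes chains of smooth muscle basement membranes, differed in opposite directions by their means. Col4a6 measured 10.93 and 10.88 in the controls and 11.22, 11.13 and 11.17 in P467L replicates 1 to 3, a 1.20-fold difference without overlap (limma, SE 0.04 log2 units, adjusted p = 0.360). A second Col4a6 probe set gave 10.90 and 10.85 against 11.14, 10.99 and 10.99. Col4a5 measured 12.09 and 12.05 against 11.83, 12.00 and 12.14, so the groups overlapped, and the difference was -0.08 with an interval from -0.36 to 0.20. Without P467L replicate 1 the difference by this main probe set was 0.00, so its direction rested on that array. The second Col4a5 probe set measured 10.90 and 10.89 against 10.62, 10.78 and 10.78, a difference of -0.17 without overlap. The difference of Col4a6 exceeded that of Col4a5 by 0.35 log2 units, and the within-array differences of the groups did not overlap.

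The starts of Col4a5 and Col4a6 lie 1343 bases apart on the X chromosome, and their windows share 0 bases. The stretches before the first annotated base of each gene are shown for contrast with the shared start above. They are chrX:141475169-141475369 (+ strand) for Col4a5 and chrX:141474096-141474326 (- strand) for Col4a6, and the CCAAT motif is in capitals. The whole window of each gene also holds 1 GC box, which lies outside the stretch shown.
Col4a5: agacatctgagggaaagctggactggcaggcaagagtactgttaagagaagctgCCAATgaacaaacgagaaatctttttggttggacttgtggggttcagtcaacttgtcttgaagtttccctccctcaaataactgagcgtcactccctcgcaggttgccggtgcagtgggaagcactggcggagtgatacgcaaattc
Col4a6: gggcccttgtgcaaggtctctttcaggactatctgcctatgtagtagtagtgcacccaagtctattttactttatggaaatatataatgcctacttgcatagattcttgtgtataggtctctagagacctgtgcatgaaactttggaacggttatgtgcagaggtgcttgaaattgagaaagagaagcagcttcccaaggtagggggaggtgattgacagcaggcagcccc

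The third pair, Col4a3 and Col4a4, is best known from the kidney filter. Col4a3 measured 8.11 in both controls and 7.86, 8.11 and 8.34 in P467L replicates 1 to 3, with a mean difference of -0.01 and the P467L arrays spread on both sides. A second Col4a3 probe set gave 0.10, with every P467L array above both controls. Col4a4 measured 9.32 and 9.37 against 9.35, 9.49 and 9.68, a difference of 0.16 (adjusted p = 0.784), and its other probe sets gave 0.17 and 0.14. By the main probe set of both genes, P467L replicate 1 was the lowest and replicate 3 the highest of the P467L arrays.

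Of the collagens that sit at the outer face of basement membranes, Col15a1 had the largest difference of all members and Col18a1 had almost none by its main probe set. Both encode multiplexins, collagens with interrupted helices whose ends are cut to release fragments that restrain vessel growth. Col15a1 measured 11.13 and 10.79 in the controls and 11.65, 11.57 and 11.45 in P467L replicates 1 to 3, a 1.51-fold difference (limma, SE 0.13 log2 units, adjusted p = 0.450). The groups did not overlap, but the controls themselves differed by 0.34, and without both arrays that stood apart the difference was 0.38. Col18a1 measured 13.01 in both controls and 13.01, 13.02 and 12.96 in P467L, a difference of -0.01 with an interval from -0.11 to 0.09. A second Col18a1 probe set gave -0.08, with every P467L array below both controls. The difference of Col15a1 exceeded that of Col18a1 by 0.61 log2 units, without overlap between the groups.

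Such within-array differences were compared between the genotypes for 8 pairs of chains by an exact two-sided permutation test, which with 3 arrays against 2 cannot give a p below 0.2. Of the 8 pairs 5 reached that value (adjusted p = 0.32 over the pairs): Col4a6 with Col4a5, Col4a4 with Col4a3, Col15a1 with Col18a1, Col1a1 with Col1a2, and Col6a3 with Col6a1. The change of Col4a2 differed from that of Col4a1 by -0.05, within the spread of the P467L arrays, with an exact p of 0.8. For Col5a1 and Col5a2 the exact p was 0.6, and for Col8a2 and Col8a1 it was 1.0.

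The 3 type VI chains were lower in P467L together. Col6a1, Col6a2 and Col6a3 supply the chains of one heterotrimer, the unit of the beaded filaments. Col6a3 measured 12.60 and 12.59 in the controls and 12.42, 12.40 and 12.35 in P467L replicates 1 to 3, a difference of -0.20 (limma, SE 0.04, 95% interval -0.31 to -0.10, adjusted p = 0.405). Col6a1 measured 12.47 and 12.51 against 12.41, 12.35 and 12.31, a difference of -0.13 (SE 0.05, adjusted p = 0.637). Col6a2 measured 13.03 and 13.04 against 12.96, 12.95 and 12.86, a difference of -0.11 (SE 0.05, adjusted p = 0.734). In all 3 genes every P467L array lay below both controls and replicate 3 was the lowest array, and 2 had an unadjusted p under 0.05. Over all genes 6.55% lay below without overlap and 2.51% were lower at that p. The size is small, 1.08-fold to 1.15-fold, and the scaling bears on it. After median centring the differences stayed negative, 0 of the 3 genes had an unadjusted p under 0.05, and only 1 kept groups without overlap. Of all genes in that setting, 1.35% were lower at that p and 3.26% lay below without overlap. A second Col6a2 probe set, of the kind that can share probes with other transcripts, gave -0.12 with overlapping groups.

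**Figure D2:**
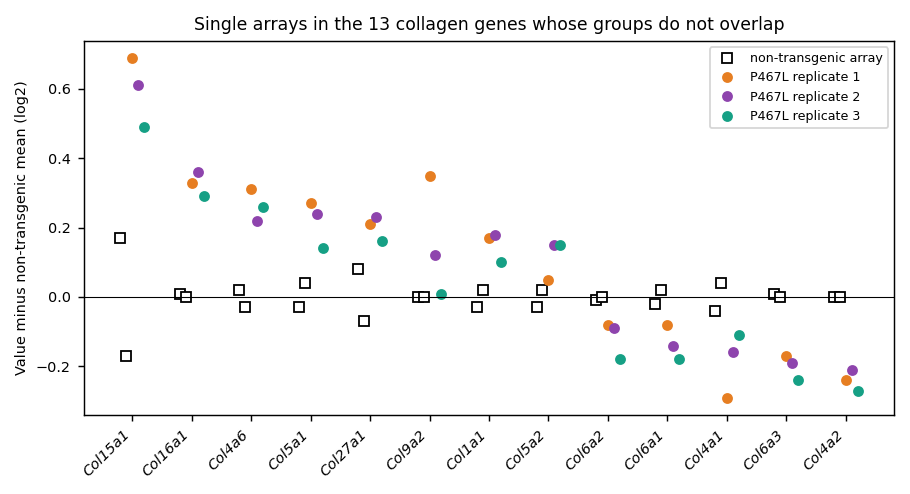
Single arrays in the 13 collagen genes whose groups did not overlap; the vertical axis is the log2 value minus the non-transgenic mean, squares are the 2 non-transgenic arrays and coloured points the 3 P467L arrays. P467L replicate 1 is farthest from the controls in Col15a1 and Col9a2, while replicate 3 is farthest in Col6a1, Col6a2 and Col6a3.

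The stretches before the first annotated base of the type VI genes are shown because these genes were lower together. They are chr10:76726045-76726294 for Col6a1, chr10:76623631-76623880 for Col6a2 and chr1:90844002-90844221 for Col6a3, all read from the - strand. Capitals mark the GC box and the AP-1 motif TGANTCA on either strand.
Col6a1: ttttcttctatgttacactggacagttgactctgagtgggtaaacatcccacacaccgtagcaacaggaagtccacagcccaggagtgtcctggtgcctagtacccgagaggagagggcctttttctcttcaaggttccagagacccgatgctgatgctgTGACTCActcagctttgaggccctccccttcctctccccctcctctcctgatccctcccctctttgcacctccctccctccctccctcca
Col6a2: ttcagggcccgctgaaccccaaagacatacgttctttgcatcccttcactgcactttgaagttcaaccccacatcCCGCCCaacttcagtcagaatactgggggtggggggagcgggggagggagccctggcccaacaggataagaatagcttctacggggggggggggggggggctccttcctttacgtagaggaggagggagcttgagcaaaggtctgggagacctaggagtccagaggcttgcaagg
Col6a3: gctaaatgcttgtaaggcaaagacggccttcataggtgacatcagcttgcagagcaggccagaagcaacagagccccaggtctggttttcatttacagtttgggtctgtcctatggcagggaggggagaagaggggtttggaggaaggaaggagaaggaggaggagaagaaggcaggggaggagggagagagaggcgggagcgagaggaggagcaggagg
In these stretches the AP-1 motif was found in Col6a1 alone of the 3, and the GC box in Col6a2 alone.

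The 14 other collagens held 1 gene with an unadjusted p under 0.05 (7.14%, beside 6.94% of all genes higher by that rule). It was Col16a1, which encodes a fibril-associated collagen made by smooth muscle cells and fibroblasts. It measured 8.78 and 8.77 in the controls and 9.10, 9.13 and 9.06 in P467L replicates 1 to 3. The groups stood apart by more than their own spread, with means of 8.77 ± 0.01 (SD, n = 2) and 9.10 ± 0.04 (SD, n = 3), a 1.25-fold difference (limma, SE 0.04 log2 units, 95% interval 0.22 to 0.43). Its adjusted p of 0.248 was the smallest of the 35 members. It and Col4a6 were the members that kept an unadjusted p under 0.05 in each alternative analysis with a test, and Col16a1 was read by 1 probe set. The stretch before its first annotated base, chr4:130047590-130047816 on the + strand, carries a GC box and a CCAAT motif, in capitals.
Col16a1: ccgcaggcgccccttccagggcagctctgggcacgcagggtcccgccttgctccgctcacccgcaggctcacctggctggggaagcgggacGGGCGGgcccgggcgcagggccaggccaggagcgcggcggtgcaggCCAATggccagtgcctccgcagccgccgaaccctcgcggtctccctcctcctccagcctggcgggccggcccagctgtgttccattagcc

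By their main probe sets, the fibril-associated collagens Col14a1 and Col12a1 overlapped between the genotypes. Col14a1, abundant in the adventitia, measured 11.67 and 11.77 in the controls and 11.67, 11.58 and 11.65 in P467L, a difference of -0.09 with an interval from -0.23 to 0.06. Col12a1 differed by -0.03 by its main probe set and by -0.32 by a second, without overlap, in which non-transgenic replicate 2 stood out at 7.42 against 6.79 to 7.02 in the other arrays. Type VIII collagen, a short-chain network collagen made by smooth muscle cells after injury, had a difference of 0.27 for Col8a1 (interval -0.14 to 0.68) and 0.24 for Col8a2 (interval -0.21 to 0.68). In Col8a1 the highest array was P467L replicate 3, at 8.15, and in Col8a2 it was replicate 1, at 6.82; the groups overlapped in both.

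Among the remaining members, Col23a1, a transmembrane collagen, had a difference of 0.28 that came with P467L replicate 1 at 7.47, while replicates 2 and 3 equalled non-transgenic replicate 2 at 6.96. Col9a2 measured 4.05 in both controls and 4.40, 4.17 and 4.06 in P467L, without overlap and at the low end of the scale. By their main probe sets, the other members, Col7a1, Col9a1, Col9a3, Col10a1, Col13a1, Col17a1 and Col25a1, differed by -0.14 to 0.01 and overlapped between the groups. A dim second Col9a1 probe set measured 4.47 and 4.53 in the controls and 4.42, 4.36 and 4.37 in P467L. Its difference was -0.12 without overlap (limma, adjusted p = 0.651). Whether the dimmest probe sets, such as that of Col17a1 at 3.85 to 3.88, were above background was not tested.

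Other probe sets of the same gene read the same RNA with different probes and so test the measurement, not the mice. Of the 31 other probe sets, 22 differed in the same direction as the main probe set of their gene. For the members with an unadjusted p under 0.05, all 5 other probe sets did so; they belong to Col1a1, Col5a1, Col27a1 and Col4a6. The other members of that group, Col4a2, Col15a1, Col6a1, Col6a3 and Col16a1, were read by 1 probe set each.

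**Figure D3:**
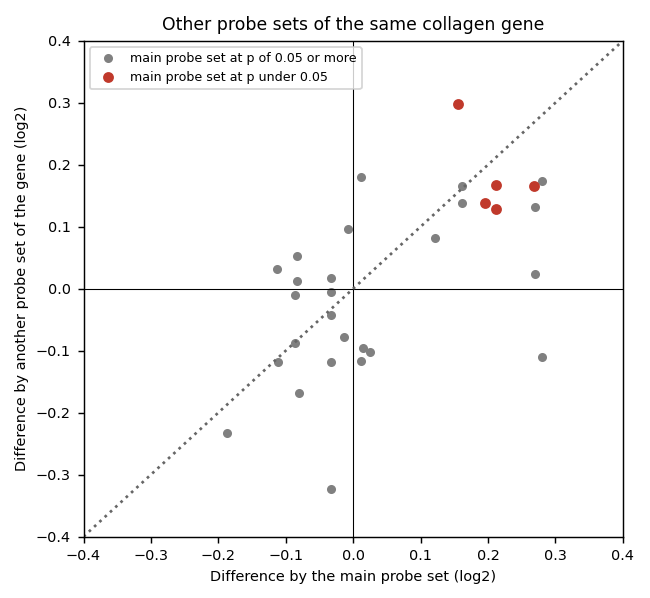
Difference between the genotypes (log2) by the main probe set of a collagen gene (horizontal axis) and by each of its other probe sets (vertical axis), 31 points from 22 genes; the dotted line marks equal values. The 5 red points, from genes whose main probe set had an unadjusted p under 0.05, lie in the upper right, and the grey points fall on both sides of 0.

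Over the 31 windows of the 28 matched members, the GC box occurred in 64.5%, beside 35.7% of all 32851 windows in the table. CCAAT occurred in 38.7% against 37.4%, and the TATA motif TATAAA in 16.1% against 13.6%. The nuclear receptor core motif AGGTCA was in 16.1% of member windows and 16.3% of all windows. Its exact direct repeat with 1 base between the copies, a form of the element bound by PPARγ with its partner RXR, was in 0 member windows and in 0.0396% of all windows. The CArG box of smooth muscle genes was in 0 member windows and in 1.63% of all. Motifs were searched on both strands, AGGTCA also counts inside the repeat, and a match is a description of the letters only.

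Collagen chains need a set of enzymes and chaperones before they can fold, and most of these had a higher mean in P467L. Of 22 genes of collagen synthesis and folding, 18 were higher with a median of 0.11, beside 10196 of 18193 genes with a median of 0.02. An unadjusted p under 0.05 was found for 4, all higher, or 18.2% of the list. By that rule 6.94% of all genes were higher, and 10.1% of those at or above the median level. In 12 genes, 54.5% of the list, P467L lay above the controls without overlap, against 16.1% of all genes. With probe sets at or above the median level only, 60.0% of 20 listed genes and 23.2% of all genes did so. P467L replicate 1 was the highest of the P467L arrays in this list, at a median of 0.16 above the control mean, and without it the median was 0.10 and the same 4 genes had an unadjusted p under 0.05. After a second quantile normalization the median was 0.06, and 3 genes had an unadjusted p under 0.05, or 13.6% beside 4.86% of all genes higher. In that setting 9 genes lay above the controls without overlap, or 40.9% beside 17.3% of all genes, and 1 lay below. The median was 0.06 with array weights as well. Without non-transgenic replicate 2, 2 of the 4 genes had an unadjusted p under 0.05. P3h2, which 3-hydroxylates prolines and acts on type IV chains, measured 9.85 and 9.80 in the controls and 10.66, 10.67 and 10.53 in P467L replicates 1 to 3. This 1.74-fold difference (limma, SE 0.06 log2 units, adjusted p = 0.151) was larger than that of any of the 35 collagens.

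The others of this list with an unadjusted p under 0.05 were P3h1, Plod3 and Fkbp14. P3h1, the prolyl 3-hydroxylase of fibrillar chains, measured 8.53 and 8.52 against 9.07, 8.83 and 8.75, a difference of 0.36, and its other probe set gave 0.16. Plod3, which hydroxylates and glycosylates lysines, measured 10.64 and 10.63 against 10.97, 10.85 and 10.84, and the prolyl isomerase Fkbp14 measured 9.65 and 9.64 against 9.89, 9.83 and 9.81, a difference of 0.20, and a dim second probe set gave 0.06. In the main probe set of each gene the groups did not overlap and P467L replicate 1 was highest, and adjusted p-values were 0.576, 0.460 and 0.443. The collagen chaperone Serpinh1 differed by 0.10 by its main probe set and by 0.33 by its other one, of the kind that can share probes with other transcripts; the groups overlapped in neither.

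Over all genes 6.94% were higher and 2.51% lower at an unadjusted p under 0.05, and 10.1% and 2.72% at or above the median level. Genes that trim and cross-link collagen numbered 10, with a median difference of 0.01 and 0 higher and 1 lower at an unadjusted p under 0.05. That gene was Loxl1, a lysyl oxidase of the elastic fibre and collagen matrix, at 12.66 and 12.76 in the controls and 12.44, 12.42 and 12.39 in P467L (limma, difference -0.29, SE 0.05, adjusted p = 0.343). The 10 collagen receptors had a median of 0.04 and 2 higher genes by the same rule. Itga1, the integrin chain that binds type IV collagen, measured 9.33 and 9.16 against 9.70, 9.89 and 10.08, a difference of 0.65 (adjusted p = 0.445), although a dimmer probe set gave -0.09. Mrc2, the receptor that takes up cleaved collagen, differed by 0.29 (adjusted p = 0.567), and its other probe set by 0.30. Of 10 collagen-degrading enzymes 1 was higher by the rule, Mmp14, the membrane protease that cuts type I collagen, whose 3 probe sets gave 0.33, 0.33 and 0.31 (adjusted p = 0.565 for the main one); the median was 0.03.

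**Figure D4:**
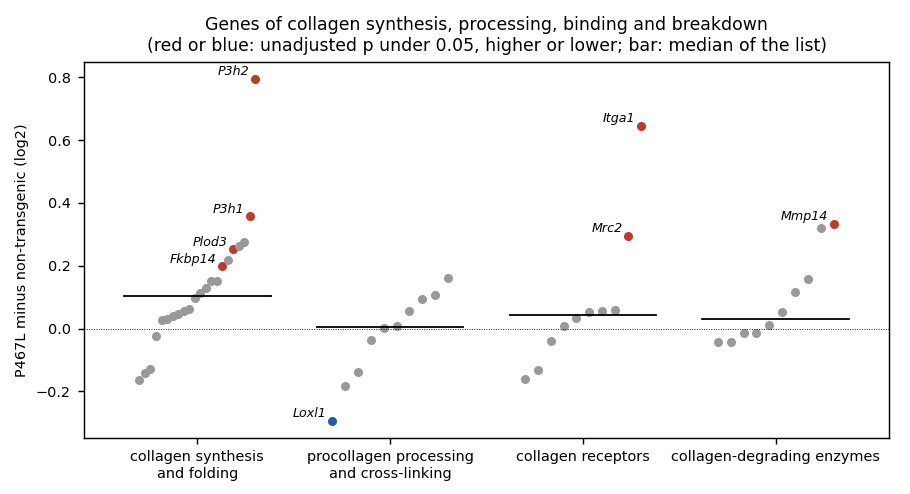
Difference between the genotypes (log2) for the genes of 4 lists around collagen, 1 point per gene by its main probe set, with the median of each list as a bar; coloured points have an unadjusted p under 0.05 and are named. P3h2, at 0.80, and Itga1, at 0.65, are highest, Loxl1, at -0.29, is lowest, and the synthesis list has 18 of 22 points above 0.

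Marker genes of the cells of the vessel were set beside these values. Those with an unadjusted p under 0.05 are named, and none of them passed adjustment. At that unadjusted p, 6.94% of all genes were higher and 2.51% lower. The summed log2 level of 9 fibroblast and adventitial markers was 15.17 to 15.23 in the controls and 15.20 to 15.34 in P467L. Of the 9, 3 were higher: Lum by 0.24, Cd34 by 0.22 and Cd248 by 0.64, with adjusted p of 0.651, 0.664 and 0.418 (limma). Defining markers of fibroblasts overlapped, with Pdgfra at 10.60 and 10.75 against 10.67 to 10.90 and Dpt at 12.09 and 12.15 against 11.99 to 12.19.

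The summed levels of smooth muscle and endothelial markers hid members that differed. The 10 contractile smooth muscle markers summed to 16.74 to 16.75 in the controls and 16.74 to 16.77 in P467L. At an unadjusted p under 0.05, 2 of them were higher. These were the intermediate filament gene Des, by 0.81, and Smtn, by 0.16 (limma, adjusted p = 0.360 and 0.493). Another 2 lay below the controls without overlap, Myocd at a difference of -0.35 and Synpo2 at -0.11 (limma, adjusted p = 0.752 and 0.819). The 10 endothelial markers summed to 12.95 to 13.01 and 13.02 to 13.11, and 4 of them differed in both directions. Emcn was lower, at a difference of -1.05, while the tight junction gene Cldn5 was higher by 0.73, the nitric oxide synthase Nos3 by 0.47 and Tie1 by 0.25. Their adjusted p-values (limma) were 0.234, 0.341, 0.234 and 0.616. The groups did not overlap in any of these 4 genes, nor in Des or Smtn. Of the defining endothelial markers, Pecam1 lay below the controls without overlap, at a difference of -0.09. Cdh5 and Kdr overlapped, at 0.04 and -0.08. Vwf lay above without overlap, by 0.10. Without overlap, 40.0% of endothelial markers lay above and 20.0% below, and of smooth muscle markers 20.0% and 20.0%. Over all genes 16.1% lay above and 6.55% below. The part of these shifts in the collagen differences was not tested.

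The summed level of 12 cartilage markers was 11.26 to 11.34 in the controls and 11.93 to 12.10 in P467L. In 5 of the 12 all P467L arrays lay above the controls, Acan by 1.79, Hapln1 by 0.63, Chad by 0.33, Sox9 by 0.32 and Comp by 0.21. In 1, Snorc, they lay below, at a difference of -0.45. That is 41.7% of the list above and 8.33% below, beside 16.1% and 6.55% of all genes. Acan, Sox9 and Snorc had an unadjusted p under 0.05 (limma, adjusted p = 0.0953, 0.405 and 0.626). By that rule 16.7% of the list were higher and 8.33% lower, beside 6.94% and 2.51% of all genes. The other 6 markers overlapped. Among the collagens that define cartilage, Col2a1 was 6.68 and 6.42 in the controls and 6.84, 6.68 and 6.51 in P467L. By their main probe sets Col9a1, Col9a3, Col10a1, Col11a1 and Col11a2 also overlapped. Col9a2 and the second Col9a1 probe set did not, as given above. Summed marker levels of fat and skeletal muscle varied between arrays. The 8 adipocyte markers summed to 12.25 to 13.14 in the controls and 12.01 to 12.70 in P467L, and 0 of them had an unadjusted p under 0.05. The 10 skeletal muscle markers summed to 11.44 to 11.80 and 11.69 to 12.28. Of the 10, 6 had a higher mean in P467L and 4 a lower one. At an unadjusted p under 0.05 Ckm was higher by 1.33 and Pygm by 0.42 (limma, adjusted p = 0.491 and 0.515). The other 8 overlapped between the groups, among them Acta1 at a difference of -0.28 and Myh4 at -0.03. The part of fat and muscle in the collagen values was not tested.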

How the data were processed

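RNA of 5 pools of thoracic aorta was measured on Affymetrix Mouse Genome 430 2.0 arrays. The deposited values are on the log2 scale. The submitters' processing notes name Affymetrix Power Tools and RMA, a method that corrects background, quantile normalizes and summarises each probe set. A shift shared by most transcripts would thus be removed. Tool versions are not given in the sources used here, nor are scan dates, and no batch was modelled.

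The 64 control probe sets were left out. Of 45037 probe sets 34945 had 1 gene in the platform annotation, 932 had several and 9160 had none; symbols were updated by gene number. The test was limma's moderated one (version 3.58.1, R 4.3.3; lmFit and eBayes, two-sided, genotype as the sole term). Its p-values were adjusted over the 45037 probe sets by Benjamini-Hochberg, and the total degrees of freedom were 4.23 per test. The number of arrays limits the precision, and p-values measure the spread between these pools. Tables and exact tests used Python 3.11.15 and SciPy 1.17.1. The fit was tested on simulated data.

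Every member is named or counted. Values in each array are given for members with an unadjusted p under 0.05, the 2 brightest of each class, the type IV pairs, and a few further members chosen after their values were seen. Of the companion and marker lists, genes past that p are named. Serpinh1, defining markers and non-overlapping cartilage, smooth muscle and endothelial markers were added. Of 168 list entries, 8 had no single-gene probe set. Members and lists were chosen with earlier results of these data known. Alternatives were other scalings, a filter on dim probe sets, other variance models, array weights, the replicate number as a block and arrays left out. Same-numbered arrays are not said to be paired, and their deviations correlated at 0.113 and 0.008.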

Additional observations from a re-analysis of the deposited data

How the results depend on the processing

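Each of the 9 collagens with an unadjusted p under 0.05 kept its direction in every alternative run. Depth here means the number of arrays, and with 5 arrays differences of this size did not pass adjustment. The count of probe sets called was 0 except with median centring (15, with 0 collagens) and with array weights. Limma's array weights gave 2245 of 45037 probe sets and 7 of 35 collagens. However, their estimate stopped before it converged and put a weight of 34.1 on P467L replicate 2. A gene-by-gene estimate, added after seeing the data, gave 283 probe sets and 1 collagen. At an unadjusted p under 0.05, 25.7% and 22.9% of members were higher with the 2 sets of weights, beside 19.2% and 14.7% of all genes. Collagens lower at an unadjusted p under 0.05, 3 in the analysis reported, numbered 1 with centring, 5 with a variance trend and robust estimation, 7 and 6 with the 2 sets of weights and 1 without both arrays that stood apart, an alternative also added after seeing the data. The shares of all genes that were lower by the same rule were 1.35%, 2.37%, 12.2%, 8.27% and 5.33% in these settings, beside 2.51% in the analysis reported. Leaving out 1 P467L array gave 3 to 6 higher, or 8.57% to 17.1% of members, beside 4.56% to 9.08% of all genes. Groups that did not overlap, 8 above and 5 below, became 3 below with centring, 8 below after a second quantile normalization, and 13 above and 10 below without both arrays that stood apart, where fewer arrays make overlap rarer: 37.1% and 28.6% of members, beside 31.8% and 28.1% of all genes. Over all genes, 3.26% lay below with centring and 8.18% after a second quantile normalization. With 1 array left out, 9 to 13 members lay above and 5 to 9 below without overlap, or 25.7% to 37.1% and 14.3% to 25.7%. Of all genes, 18.7% to 27.9% lay above and 7.83% to 17.2% below. The median of the members, 0.012, was 0.052 with centring, 0.024 after quantile normalization, -0.002 and -0.004 with the weights, -0.02 without both arrays, 0.005 over all probe sets of a gene, and -0.005 to 0.015 with 1 array left out. Where a control was left out, the lone control was assumed to vary like the P467L arrays. With the replicate number as a block, P467L replicate 3 added nothing to the estimated differences, since no control carries that number. They equal those obtained without that array. In the block setting 0 probe sets were called and 5 collagens were higher and 3 lower at an unadjusted p under 0.05. These are 14.3% and 8.57% of members, beside 7.95% and 2.46% of all genes. The cause of these shifts was not tested. Counts by p could not be made over the median of all probe sets, which has no p.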

Other observations

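The annotation names 7 further collagen genes that were not among the 35. Col19a1, a fibril-associated collagen, measured 7.89 and 7.74 in the controls and 8.35, 8.66 and 8.62 in P467L replicates 1 to 3. The groups did not overlap, and the difference of 0.73 (limma, SE 0.12, adjusted p = 0.360) was larger than that of any listed collagen. It was singled out after its values were seen. The remaining 6, Col20a1, Col22a1, Col24a1, Col26a1, Col6a4 and Col6a5, differed by -0.14 to -0.02 and overlapped between the groups.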
